A study of Mus musculus with 8 samples.

Results

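The genes described here are 10 mouse genes of blood and lymphatic vessels, chosen by name from 24062 genes in the count table. They are the VEGF receptor genes Flt1, Kdr and Flt4, the ligand genes Vegfa, Vegfb, Vegfc and Pgf, the angiopoietin receptor gene Tek with its relative Tie1, and the adhesion gene Pecam1. Their poly(A) RNA was read in 8 libraries from 1 immortalized mouse embryonic fibroblast line. The labels give this line as knocked out for Setdb1, Suv39h1, Suv39h2, Ehmt1 and Ehmt2, which encode histone H3 lysine methyltransferases, and for Ring1b (gene symbol Rnf2), a subunit of Polycomb repressive complex PRC1. Every group carried these deletions and every group received a lentiviral shRNA at a multiplicity of infection of 2, followed by 3 days of selection with BSD. Control cells had the control shRNA, and knockdown cells had an shRNA against Ring1a (gene symbol Ring1), the paralogue of Ring1b. Inhibitor cells had the control shRNA and DS3201 at 1 uM for 7 days, and combined cells had the Ring1a shRNA and the same DS3201 treatment. DS3201 inhibits EZH1 and EZH2, the enzymes of the Polycomb complex PRC2 that methylate histone H3 at lysine 27. There were 2 libraries in each of the 4 groups. No library used here has these genes intact, so the values compare treatments within this mutant line and the deletions themselves were not compared.

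VEGF ligands are secreted dimers that bind receptor tyrosine kinases on endothelial cells. Kdr (VEGFR2) carries most of the signal for endothelial growth and permeability, Flt1 (VEGFR1) binds VEGFA, VEGFB and PlGF and also has a soluble form that traps ligand, and Flt4 (VEGFR3) binds VEGFC and VEGFD and is needed for lymphatic vessels. Tek (TIE2) and Tie1 form the angiopoietin receptor system, which keeps vessels stable, and Pecam1 (CD31) is an adhesion molecule at endothelial junctions. Fibroblasts and other supporting cells are usual sources of the ligands, while the receptors and Pecam1 mark endothelium.

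Total counts ran from 12738585 to 23688253 per library. The column names carry the prefix 20 or 28 for each group, here called set 20 and set 28. Per-library values below are given as set 20 then set 28, in CPM, the count scaled by library size with TMM factors. The floor of 3 counts corresponded to 0.122 to 0.265 CPM, which covers counting error only. The shRNA target Ring1 read 20.2 and 9.73 CPM in control, 4.51 and 1.41 in knockdown, 20.4 and 7.51 in inhibitor and 3.52 and 2.04 in combined cells. This was lower in the knockdown within each set, with a log2 difference of -2.32 ± 0.73 (SE, n = 2 per group) that edgeR did not call (adjusted p 1). Rnf2 RNA was still read at 26.4 to 89.0 CPM, and because the edited positions are not given its level does not test the knockout. Set 28 of the inhibitor cells stood apart, with a TMM factor of 0.889 against 0.971 to 1.045 elsewhere and 14.6% of its counts on repeats against 8.59% to 12.95%. Fibroblast collagen RNA was high in every library, with Col1a1 at 3051.8 to 6954.1 CPM. The endothelial marker Cldn5 had 0 counts in all 8 libraries, and Cdh5 (VE-cadherin) had 0 to 21.

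The promoters of 4 receptor genes are shown because 3 of them belong to the genes that moved together with the inhibitor and the last, Kdr, belongs to a receptor gene that was not called. Each is the RefSeq window on GRCm38.p6 from 250 bases before to 50 bases after the annotated start, printed in the sense of transcription, with every CpG in capitals.
Flt4, chr11:49609429-49609728, plus strand: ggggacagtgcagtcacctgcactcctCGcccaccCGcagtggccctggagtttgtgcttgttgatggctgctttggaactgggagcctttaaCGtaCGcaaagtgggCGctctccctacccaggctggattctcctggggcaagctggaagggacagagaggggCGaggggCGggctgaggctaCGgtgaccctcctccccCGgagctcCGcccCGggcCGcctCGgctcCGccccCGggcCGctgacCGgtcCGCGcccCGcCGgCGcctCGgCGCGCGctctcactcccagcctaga
Tek, chr4:94739039-94739338, plus strand: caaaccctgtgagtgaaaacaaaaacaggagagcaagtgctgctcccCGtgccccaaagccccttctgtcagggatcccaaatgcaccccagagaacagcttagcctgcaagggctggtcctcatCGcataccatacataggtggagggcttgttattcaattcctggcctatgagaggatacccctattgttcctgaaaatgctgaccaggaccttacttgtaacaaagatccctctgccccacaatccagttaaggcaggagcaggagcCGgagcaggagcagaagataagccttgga
Tie1, chr4:118489800-118490099, minus strand: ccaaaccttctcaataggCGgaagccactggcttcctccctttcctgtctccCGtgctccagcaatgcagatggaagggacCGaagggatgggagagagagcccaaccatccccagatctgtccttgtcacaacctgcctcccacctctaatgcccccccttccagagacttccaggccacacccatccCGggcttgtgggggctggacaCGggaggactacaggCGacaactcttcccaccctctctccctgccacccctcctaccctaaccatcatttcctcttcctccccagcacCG
Kdr, chr5:75978406-75978705, minus strand: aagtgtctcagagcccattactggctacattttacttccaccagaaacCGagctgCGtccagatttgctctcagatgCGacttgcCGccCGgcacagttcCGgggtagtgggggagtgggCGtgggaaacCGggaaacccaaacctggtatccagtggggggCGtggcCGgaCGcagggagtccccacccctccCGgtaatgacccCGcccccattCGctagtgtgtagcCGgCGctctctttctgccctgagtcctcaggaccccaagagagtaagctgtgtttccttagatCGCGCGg
The windows differ widely in CpG content. Flt4 holds 26 CpG and Kdr 19, while Tie1 holds 7 and Tek 3. Over 32851 windows of the same length the median was 7 CpG with quartiles of 3 and 20, and 83.1% had fewer than Flt4 and 23.3% fewer than Tek. The 3 called genes thus had 1 window above the upper quartile (Flt4), 1 at the median (Tie1) and 1 at the lower quartile (Tek). Of the 10 genes, 9 had a window, which leaves out Pecam1. CpG-rich windows were also found for genes that were not called, with 29 CpG for Flt1, 31 for Vegfb and 35 for Vegfc. The letters CGGAAG, 1 form of the ETS core, occurred on either strand in 16.9% of all windows and among the members only in Tie1. Other forms of the ETS core were not searched, so other members may hold one. The letters ACGTG, 1 form of the core bound by hypoxia-inducible factors, occurred in 19.6% of all windows and among the members only at the downstream start of Vegfa. The form GCGTG was not searched, so other members may hold this core. These are descriptions of letters in 1 window per start.

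With DS3201, RNA of 3 of the 10 genes rose: Flt4, Tek and Tie1. The average effect of DS3201 over both shRNAs was used, and none of the 10 was called lower. Over all 15287 entries tested this comparison called 5.24% higher and 0.216% lower. The 3 genes were under 1 CPM without the inhibitor, as were Pgf and Pecam1, which were not called. Of the 2262 entries under 1 CPM without DS3201, 29.0% were called higher, so 3 of 5 members stand against that share and not against 5.24%. All 10 genes passed the filter on low counts, but Flt4, Tek and Tie1 passed only through the groups with DS3201, so a difference was built into their passing. In 4 libraries with DS3201 against 4 without, these 3 genes also had no overlap between treatments, as did 12.3% of all entries upward and 5.28% downward. For entries under 1 CPM without DS3201 the upward share was 49.9%. The median log2 fold change was 0.34 over the 10 members and 0.04 over all entries, with 6 of 10 members above 0.

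**Figure D1:**
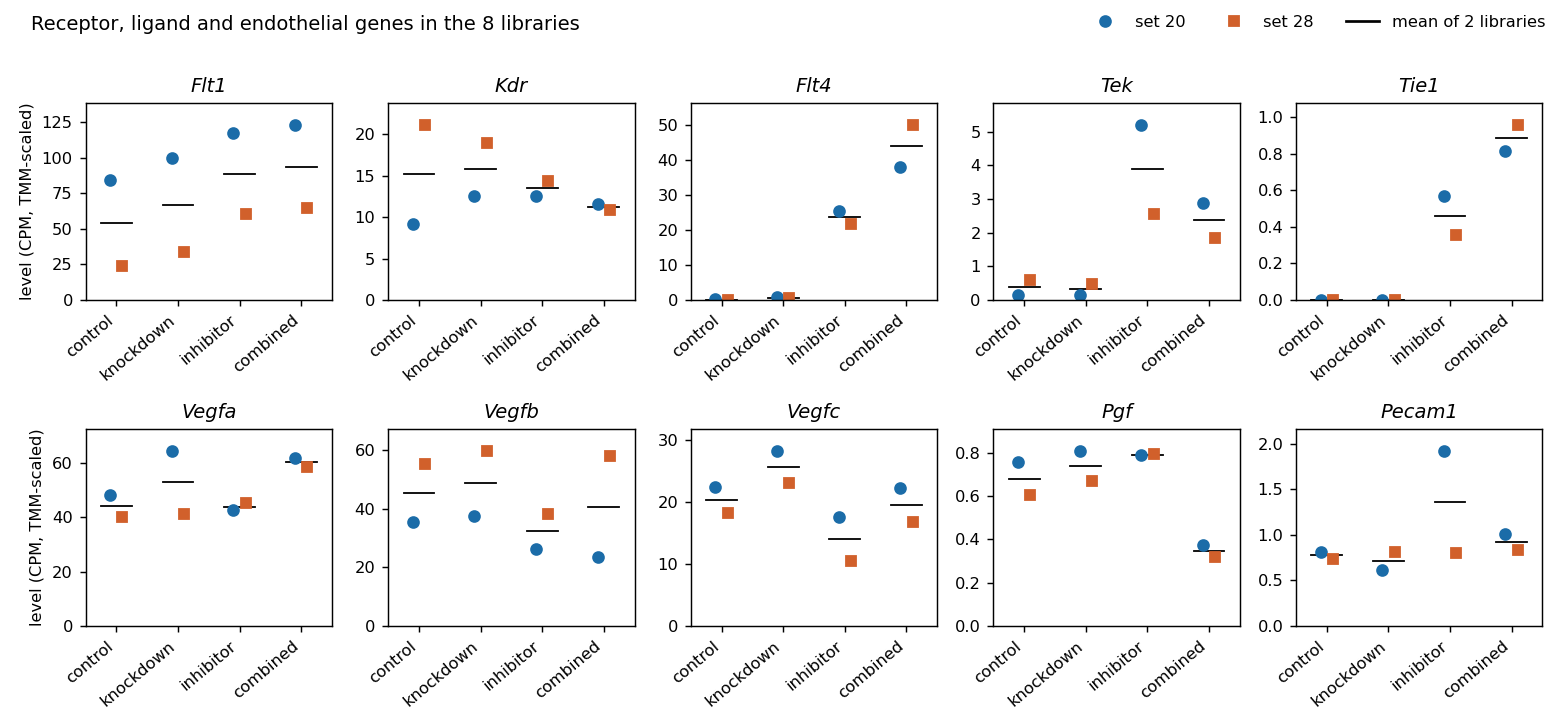
Level of each of the 10 genes in the 8 libraries, in CPM on linear axes that start at 0 and differ between panels, with 1 point per library, marked by set, and a bar at the mean of the 2 libraries of a group. Flt4, Tek and Tie1 lie higher in all 4 libraries with DS3201, Flt1 lies higher in set 20 in every group, and Pgf is lowest in the 2 combined libraries.

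Flt4, the receptor of lymphatic endothelium, lies on chromosome 11 at 49609263 to 49652739 on the plus strand (GENCODE vM21, GRCm38), and its promoter was the CpG-rich window shown. It read 0.238 and 0 CPM in control cells, which are 5 and 0 counts. It read 0.731 and 0.538 CPM in knockdown cells, 25.5 and 21.8 in inhibitor cells and 38.0 and 50.02 in combined cells. The 4 libraries with DS3201 lay far above the 4 without, with at least 247 counts in each treated library. Flt4 rose by 6.74 ± 0.50 on the log2 scale (SE, edgeR adjusted p 0.00241), by 5.83 within set 20 and 6.90 within set 28. It stayed called without each of the 8 libraries in turn, with adjusted p from 0.00415 to 0.0203. Without control set 28 the log2 change was 6.33. Without control set 20 the remaining control library had 0 counts, so that fit gives no bound. The exact two-sided permutation test of 4 against 4 libraries gave p = 0.0286, the smallest it can give, for Flt4, Tek and Tie1 alike among the 10 genes tested. This value only restates that treated and untreated libraries did not overlap, as in 49.9% of entries under 1 CPM without DS3201. These genes passed the filter only through the DS3201 groups, so the test adds no separate evidence.

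Flt4 was also called in each single comparison with DS3201. It was under 1 CPM without DS3201 and passed the filter on low counts only through the DS3201 groups. The shares below are over all entries, and those for entries under 1 CPM were not computed for the single comparisons. Next to control cells, the inhibitor cells were higher by 7.39 ± 0.81 on the log2 scale (adjusted p 0.0184), where 0.726% of all entries were called higher. Summed over the group this is 173-fold, with a 95% counting interval of 73.7 to 534. The value depends on the control libraries: without control set 28 the log2 difference was 6.59, and against control set 28 alone, with 0 counts, the floor of 3 counts gives at least 119.5-fold. Next to knockdown cells, the combined cells were higher by 6.08 ± 0.59 (adjusted p 0.0229), where 0.602% of entries were called, and the ratio of summed counts was 66.7 with an interval of 45.3 to 102.5. Combined against control cells gave 8.29 ± 0.81 (adjusted p 0.0121), where 1.43% were called, and 316-fold by summed counts, with limits of 135 and 975. Without control set 28 this difference was 7.485, and against control set 28 alone it was at least 218.3-fold. These comparisons share libraries. Each single comparison lost its call in some fits without 1 library, with adjusted p up to 0.112, 0.209 and 0.0793 in that order, and in fits of only the 4 libraries compared (0.141, 0.0511 and 0.0893). For the inhibitor against control cells the call was lost without control set 20 and without either library of the inhibitor or combined cells. For combined against knockdown cells it was lost without either library of the knockdown, inhibitor or combined cells. For combined against control cells it was lost without control set 20, inhibitor set 28 or either combined library.

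Tek encodes the receptor of the angiopoietins and lies on chromosome 4 at 94739289 to 94874976 on the plus strand. It read 0.143 and 0.604 CPM in control, 0.163 and 0.471 in knockdown, 5.21 and 2.56 in inhibitor and 2.89 and 1.85 in combined cells. All 4 treated libraries were above the untreated ones, with 29 to 92 counts against 3 to 9. Tek rose by 3.17 ± 0.60 (edgeR adjusted p 0.039), by 3.89 within set 20 and by 1.82 within set 28. It was not called in any of the 8 fits that left out 1 library, with adjusted p from 0.0539 to 0.142 and log2 changes from 2.78 to 3.81, the highest without control set 28. It was not called in any single comparison. With the set as a block the average effect was 3.22 ± 0.57 (adjusted p 0.0098), and the inhibitor against control cells passed as well (adjusted p 0.0465).

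Tie1, the orphan receptor that pairs with TIE2, lies on chromosome 4 at 118471191 to 118490061 on the minus strand. It had 0 counts in the 4 libraries without DS3201. It had 10 and 4 counts in inhibitor cells and 13 and 15 in combined cells, or 0.566 and 0.353 CPM and 0.816 and 0.958 CPM. Against a floor of 3 counts over the 4 untreated libraries, Tie1 rose at least 17.4-fold (edgeR adjusted p 0.0307). The level stayed under 1 CPM in every library, and the call rests on 42 counts in all. It was lost in each of the 8 fits that left out 1 library, with adjusted p from 0.0558 to 0.135. With the block it passed in the average effect (0.0115), in combined against control cells (0.0323) and in combined against knockdown cells (0.0402).

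**Figure D2:**
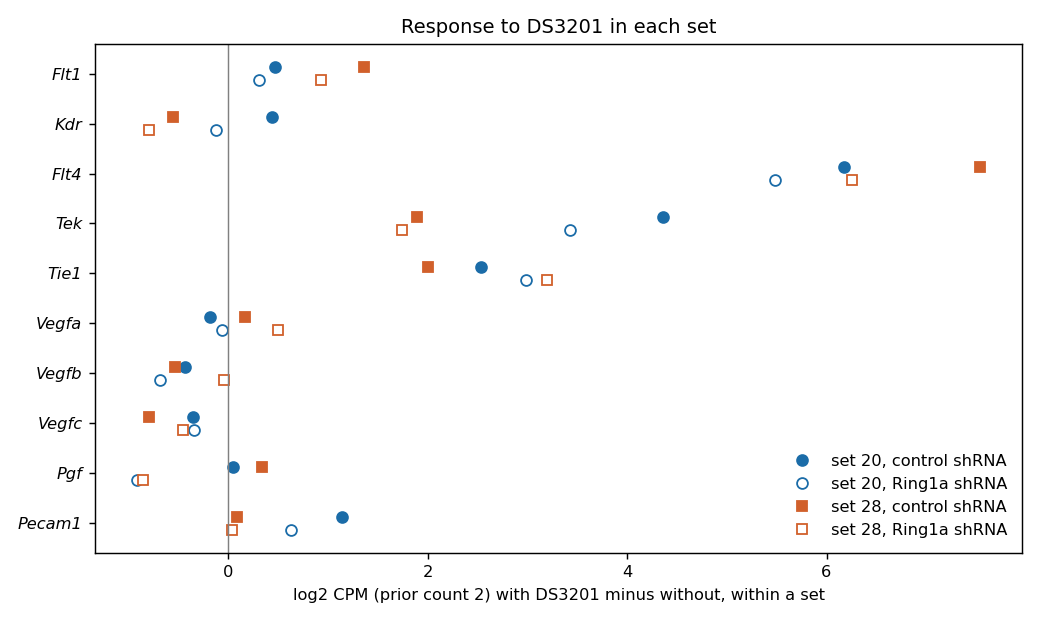
Difference in log2 CPM (prior count 2) with DS3201 minus without, for each of the 10 genes, with 1 point per set and shRNA and a line at 0. Flt4, Tek, Tie1, Flt1 and Pecam1 lie above 0 in all 4 pairs, Vegfb and Vegfc below 0 in all 4, and Kdr, Vegfa and Pgf on both sides.

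Flt1 and Kdr, the other VEGF receptor genes, were already read in the untreated cells. Flt1, on chromosome 5 at 147561604 to 147726011 on the minus strand, read 84.4 and 23.6 CPM in control, 99.6 and 33.7 in knockdown, 117 and 60.6 in inhibitor and 123.1 and 64.5 in combined cells. Set 20 was above set 28 in every group, by 1.84, 1.56, 0.95 and 0.93 on the log2 scale, and the treated and untreated libraries overlapped. Its average log2 difference with DS3201 was 0.60 ± 0.54 (adjusted p 0.642), positive in both sets at 0.39 and 1.15. With the set as a block it passed at 0.76 ± 0.18 (adjusted p 0.0289), where 12.9% of all entries were called higher and 4.16% lower. Without inhibitor set 28 the block gave 0.60 and an adjusted p of 0.0877.

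Kdr lies on chromosome 5 at 75932827 to 75978458 on the minus strand. It read 9.17 and 21.1 CPM in control, 12.6 and 18.9 in knockdown, 12.5 and 14.4 in inhibitor and 11.55 and 10.9 in combined cells. The groups overlapped, and the 2 sets had opposite signs for the DS3201 difference (0.16 and -0.67). The average of -0.33 ± 0.30 did not pass (adjusted p 0.651), nor did it with the block (0.462).

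The order of the 3 VEGF receptor genes changed with DS3201 when levels were divided by exon length. On this scale, CPM per kilobase of merged exons, Flt1 read 6.25 and 1.74 in control and 9.11 and 4.77 in combined cells. Kdr read 1.02 and 2.34 in control and 1.28 and 1.20 in combined cells. Flt4 went from 0.0289 and 0 in control to 3.10 and 2.65 in inhibitor and 4.61 and 6.08 in combined cells. Flt4 was therefore below Kdr in all 4 libraries without DS3201 and above it in all 4 with DS3201. It exceeded Flt1 in 1 library, combined set 28. This order is a description of levels, and the division by merged exons assumes the same transcript for every group.

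**Figure D3:**
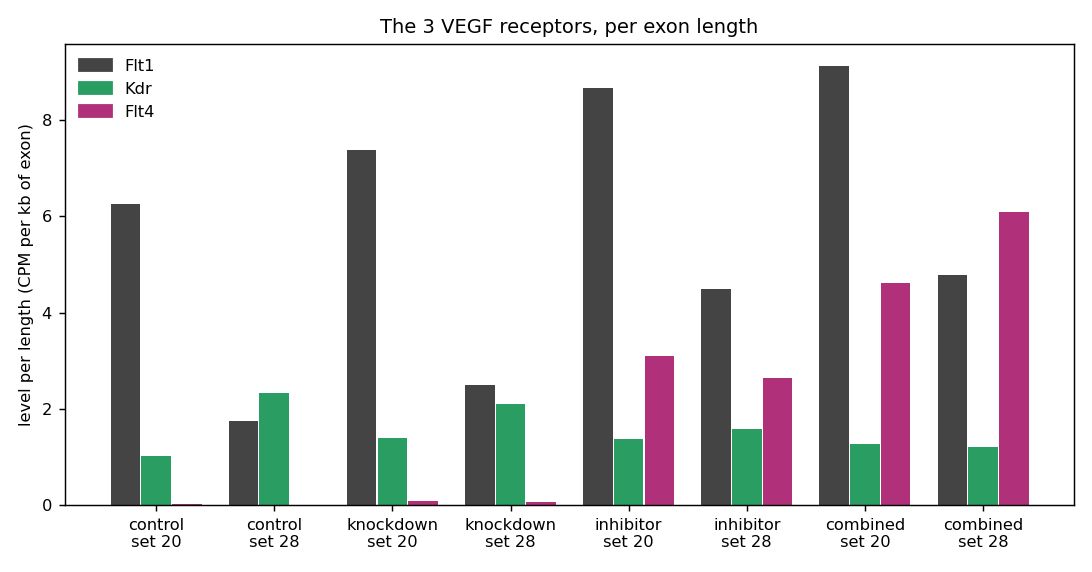
CPM per kilobase of exon for Flt1, Kdr and Flt4, as 1 bar per gene in each of the 8 libraries. Flt4 lies below Kdr in the 4 libraries without DS3201 and above it in the 4 with DS3201, while Flt1 is the highest of the 3 in 6 libraries.

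None of the 4 ligand genes was called in any comparison without the block. Vegfa, the main ligand of Kdr, is on chromosome 17 at 46016993 to 46032369 on the minus strand. It read 48.3 and 40.3 CPM in control, 64.6 and 41.4 in knockdown, 42.6 and 45.2 in inhibitor and 62.0 and 58.45 in combined cells. The groups overlapped, and the average difference with DS3201 was 0.09 ± 0.18 on the log2 scale (adjusted p 0.862). Vegfc, a ligand of Flt4 on chromosome 8 at 54077606 to 54187096 on the plus strand, read 22.4 and 18.1 CPM in control and 28.3 and 23.1 in knockdown cells. It read 17.6 and 10.4 CPM in inhibitor cells and 22.2 and 16.8 in combined cells. DS3201 libraries were lower within each shRNA and set, but the groups overlapped, and the difference of -0.47 ± 0.23 did not pass (adjusted p 0.369, and 0.0588 with the block). With the block and without inhibitor set 28 the Vegfc difference was -0.42.

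Vegfb, a ligand of Flt1, lies on chromosome 19 at 6982473 to 6987651 on the minus strand. It read 35.45 and 55.2 CPM in control, 37.45 and 59.8 in knockdown, 26.2 and 38.2 in inhibitor and 23.3 and 57.9 in combined cells. Set 28 was above set 20 in every group, and the DS3201 difference was -0.38 ± 0.35 (adjusted p 0.656, and 0.116 with the block). Pgf, which encodes placental growth factor and binds Flt1, lies on chromosome 12 at 85166635 to 85177790 on the minus strand. It had 5 to 20 counts per library and read 0.760 and 0.604 CPM in control, 0.812 and 0.673 in knockdown, 0.793 and 0.795 in inhibitor and 0.377 and 0.319 in combined cells. The 2 combined libraries were the lowest of the 8, and their difference from control of -0.96 ± 0.59 did not pass (adjusted p 0.618). Per kilobase of exon, group means ran from 20.1 to 30.3 CPM for Vegfb, 10.25 to 14.1 for Vegfa, 5.71 to 10.5 for Vegfc and 0.12 to 0.27 for Pgf. The ligand genes kept this order in the mean of every group.

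The co-receptors and further ligands form a list of which 10 genes were in the table and 8 were tested. With DS3201, 0 were called higher and 1 lower, beside 5.24% and 0.216% of all entries, with a list median of -0.22. The called gene was Angpt4, an angiopoietin and ligand of TIE2. Angpt4 read 3.85 and 4.77 CPM in control, 4.71 and 4.31 in knockdown, 1.13 and 1.50 in inhibitor and 0.879 and 1.15 in combined cells. It fell by 1.93 ± 0.29 on the log2 scale (edgeR adjusted p 0.019), with no overlap, and it was called in 1 of 8 fits without 1 library (adjusted p 0.0412 to 0.0947). Figf, which encodes VEGFD, the second ligand of Flt4, read 86.2 and 27.6 CPM in control and 68.7 and 25.6 in knockdown cells. It read 33.8 and 7.33 CPM in inhibitor and 15.5 and 5.43 in combined cells, lower with DS3201 within both sets. The difference of -1.82 ± 0.66 did not pass (adjusted p 0.228), and with the block it was -1.89 ± 0.16 (adjusted p 0.000635). The block also called Svep1, a matrix protein of lymphatic vessel growth, higher (2.24 ± 0.57, adjusted p 0.0475), which makes 1 higher and 2 lower of the 8. Over all entries the block called 12.9% higher and 4.16% lower. The angiopoietin genes Angpt1 (1.35 ± 0.77, adjusted p 0.446) and Angpt2 (-0.69 ± 0.27, adjusted p 0.258) were not called. The neuropilin co-receptor genes Nrp1, at 132.6 CPM without and 130.4 with DS3201, and Nrp2, at 226 and 218.2 CPM, were not called.

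Pecam1, on chromosome 11 at 106654217 to 106750628 on the minus strand, stayed at a low level in every group. It read 0.808 and 0.738 CPM in control, 0.609 and 0.808 in knockdown, 1.925 and 0.795 in inhibitor and 1.005 and 0.830 in combined cells, from 9 to 34 counts. The groups overlapped, the highest library was inhibitor set 20, and the difference of 0.60 ± 0.44 did not pass (adjusted p 0.557, and 0.318 with the block). The sets gave 0.88 and 0.06.

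Other endothelial surface genes showed no call with DS3201. Of 20 in the table, 11 were tested and 0 were called in either direction, with a median of 0.39. Over all entries 5.24% were called higher and 0.216% lower, so 0 of 11 does not set this list apart. With the block, 2 were called higher, Mcam (0.52 ± 0.13, adjusted p 0.0367) and Clec14a (4.02 ± 0.79, adjusted p 0.0156). The block called 12.9% of all entries higher, and 54.4% of those averaging under 1 CPM without DS3201, where Clec14a lay. Cdh5, the cadherin that defines endothelial junctions, read 0 to 1.005 CPM and differed by 0.83 ± 1.06 (adjusted p 0.76). In set 28 it went from 1 and 0 counts without DS3201 to 11 and 15 with it, and in set 20 from 21 and 20 to 10 and 16. Clec14a, a surface protein of endothelium, read 0 to 1.75 CPM without and 4.77 to 9.45 with DS3201, and Vwf, the von Willebrand factor gene, read 7.14 to 17.6 CPM over all libraries. Emcn, Erg, Robo4, Sox17 and Prox1 had 0 to 2 counts per library, and Lyve1 and Etv2 had 0 to 1. The summed level of the 20 genes ran from 603.7 to 687.8 CPM without DS3201 and from 579.2 to 766 with it, so the groups overlapped. Most of this sum came from Vcam1 (means of 284.4 CPM without and 219.9 with DS3201) and Cd34 (224.7 and 251.4). Neither was called, and the sum does not describe the other genes of the list. In the 4 libraries with DS3201, Cldn5, Emcn, Erg, Robo4, Sox17, Prox1, Lyve1 and Etv2 were thus at 0 to 2 counts, while Cdh5 had 10 to 16, Tie1 had 4 to 15, and Clec14a and Vwf were read at several CPM. The part of endothelial cells in these levels was not tested. In these bulk RNA samples, more cells of a type and more RNA per cell cannot be told apart.

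Endothelial transcription factor genes gave 3 calls higher among 10 tested of 17 in the table, 0 lower, and a median of 1.12. This stands beside 5.24% of all entries called higher and 29.0% of those under 1 CPM without DS3201, where 3 of these 10 genes lay and 1 of them, Fli1, was called. Gata2, a factor of blood and endothelial progenitors, read 5.66 and 5.30 CPM in control, 11.3 and 9.15 in knockdown, 13.5 and 12.2 in inhibitor and 24.3 and 25.5 in combined cells. It rose by 1.26 ± 0.17 with DS3201 (adjusted p 0.0132) and was higher by 2.18 ± 0.24 in combined than in control cells (adjusted p 0.02). Klf4, a factor induced by blood flow in endothelium and also active in many other cells, rose by 1.62 ± 0.24 (adjusted p 0.0179). Fli1, an ETS factor, had 0 counts without DS3201 and rose at least 26.6-fold (adjusted p 0.0443), reaching 0.283 and 1.50 CPM in inhibitor and 1.19 and 1.47 in combined cells. Like Flt4, Fli1 passed the filter on low counts only through the DS3201 groups, so its difference was built in, and so it was for Tal1 and Lmo2. With the block 6 were called, beside 12.9% of all entries and 54.4% of those under 1 CPM, adding Tal1 (3.27 ± 0.45, adjusted p 0.00311), Lmo2 (adjusted p 0.00407) and Hhex (0.88 ± 0.22, adjusted p 0.0373). Of the 8 fits that left out 1 library, 2 called Gata2 (adjusted p 0.0317 to 0.0798), 3 called Klf4 (0.0297 to 0.0812) and 1 called Fli1 (0.0453 to 0.151).

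Of the Notch and ephrin genes of vessels, 8 of 9 were tested, and 2 were called higher, 0 lower, with a median of 1.28. Both, Hey1 and Notch4, were under 1 CPM without DS3201, where 29.0% of entries were called higher (54.4% with the block). Hey1, a Notch target, rose by 4.62 ± 0.98 (adjusted p 0.0321), from 0 to 5 counts in the untreated libraries to 17 to 56 in the treated ones. Hey1 passed the filter only through the DS3201 groups. Notch4, a Notch receptor of endothelium, rose by 2.48 ± 0.49 (adjusted p 0.0407). Its untreated libraries read 0.380 to 0.934 CPM and its treated libraries 1.59 to 4.60. With the block 4 were called, adding Efnb2 (1.51 ± 0.16, adjusted p 0.00152) and Nrarp. Of 4 lymphatic genes tested of 7, Reln was called higher (adjusted p 0.0106), at 169 times its level without DS3201, where it had 1 count (counting limits 29.9 and 6738). Reln too was tested only because of its counts with DS3201. With the block Sema3d, a semaphorin gene, was called lower (-1.36 ± 0.11, adjusted p 0.000631), at 53.6 CPM without and 22.1 with DS3201, which makes 1 higher and 1 lower. Over all entries the block called 12.9% higher and 4.16% lower, and Reln was among those under 1 CPM without DS3201. The median of this list was -0.42. Prox1 and Lyve1, which define lymphatic endothelium, were among the genes near 0. Of the 8 fits that left out 1 library, 1 called Hey1 (adjusted p 0.0403 to 0.112), 0 called Notch4 (0.0613 to 0.159) and 5 called Reln (0.0264 to 0.0526).

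**Figure D4:**
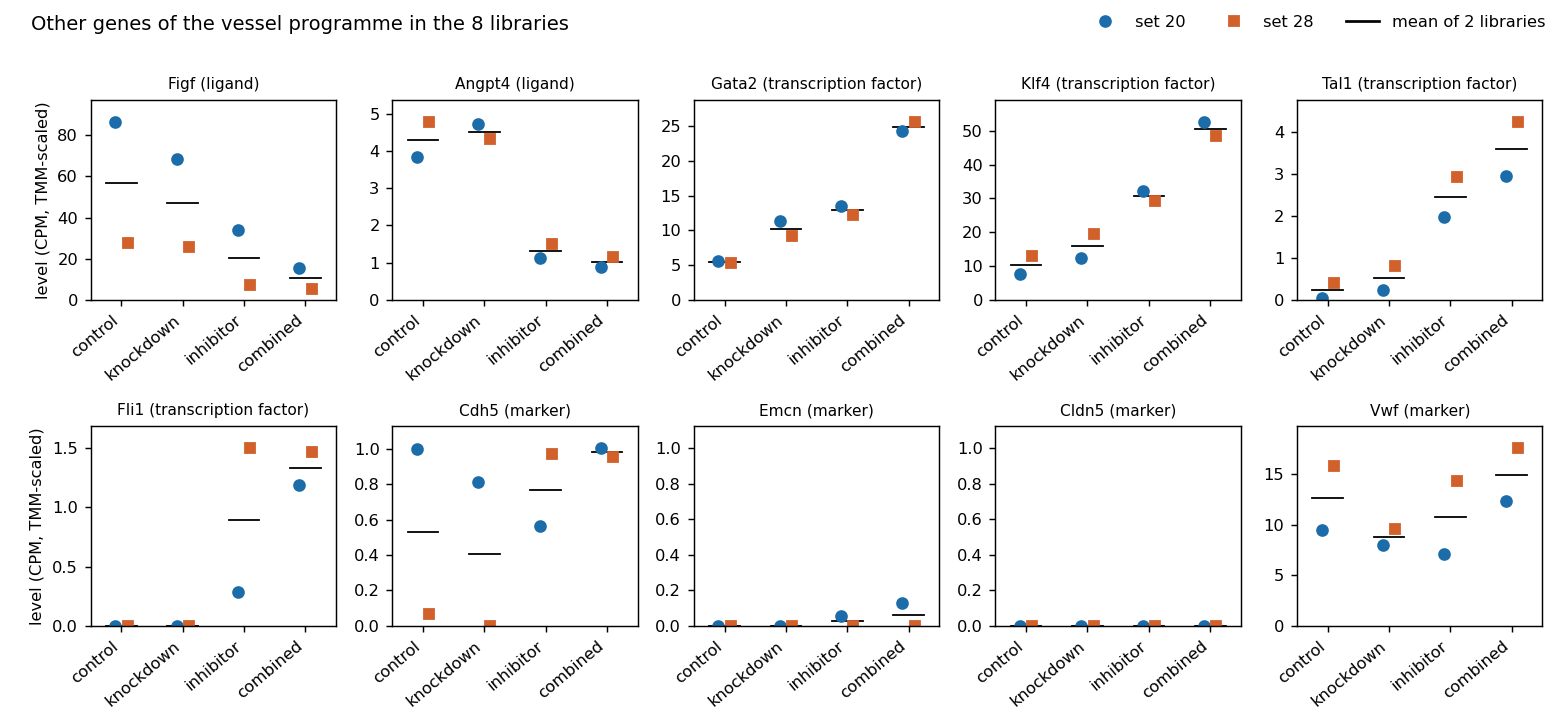
Level of 10 other vessel genes in the 8 libraries, in CPM on linear axes that start at 0, with 1 point per library marked by set and a bar at the mean of a group. Angpt4 is lower and Gata2, Klf4, Tal1 and Fli1 are higher in all 4 libraries with DS3201, while Cdh5 and Vwf overlap between treatments, Emcn is near 0 and Cldn5 is at 0.

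The signalling genes downstream of the receptors gave no call: of 15 in the table, 13 were tested and 0 passed, with a median of -0.14. With the block Map2k1 was called lower, as were 4.16% of all entries. Of 16 hypoxia-response genes, among which Vegfa is a classical target, 15 were tested and 0 passed, with a median of 0.01. With the block Epas1 (1.99 ± 0.37, adjusted p 0.0142) and Egln3 (3.93 ± 0.65, adjusted p 0.00936) were higher and Pgk1 (-0.56 ± 0.14, adjusted p 0.0369) was lower. These calls stand beside 12.9% of all entries higher and 4.16% lower with the block. Without the block, 5.24% of all entries were higher and 0.216% lower, so 0 calls do not set either list apart.

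Markers of other cell types moved beside the receptor genes, and their part in these results was not tested. Of 13 fibroblast genes tested, 1 was called higher and 1 lower, and with the block 2 were higher and 7 lower. Over all entries, 5.24% were called higher and 0.216% lower, and with the block 12.9% and 4.16%. Dcn, a matrix proteoglycan, rose by 5.56 ± 0.86 (adjusted p 0.022), and Pdgfrb, a receptor of mesenchymal cells, fell by 1.50 ± 0.16 (adjusted p 0.00794). With the block Pdgfra was higher (3.56 ± 0.42, adjusted p 0.00246), and Col1a1 (-0.70 ± 0.14, adjusted p 0.0149), Col1a2 (-0.76 ± 0.17, adjusted p 0.0247) and Twist2 (-0.66 ± 0.14, adjusted p 0.0219) were lower, as were Col3a1, S100a4 and Postn. The summed fibroblast list ran from 19309.6 to 21657.1 CPM without DS3201 and from 12607.6 to 15226.5 with it, with no overlap. Col1a1, Col1a2 and Col3a1 gave most of this sum, so it does not describe the other genes of the list. Their means were 6166.6, 4810 and 2561.4 CPM without DS3201 and 3785.7, 2826.7 and 1212.1 with it. The median of this list was -0.41. Dcn was called in 4 and Pdgfrb in 7 of 8 fits that left out 1 library (adjusted p 0.028 to 0.0892 and 0.0218 to 0.0554). Of 7 blood genes tested, 1 was called higher, Lyz2 (4.99 ± 0.48, adjusted p 0.00664), and with the block Kit as well (adjusted p 0.0054). Dcn, Lyz2 and Kit, and Rgs5 of the mural list, passed the filter only through the DS3201 groups. They were under 1 CPM without DS3201, where 29.0% of entries were called higher, and 54.4% with the block. Lyz2 was called in all 8 fits that left out 1 library, with a log2 change of 5.74 without control set 28. The summed blood list ran from 26.75 to 33.6 CPM without and 37.55 to 49.1 with DS3201, again with no overlap. Runx1, which was not called, gave most of this sum, at means of 18.9 CPM without and 25.5 with DS3201. Of 6 mural genes tested, 0 were called, and with the block Rgs5 (1.43 ± 0.38, adjusted p 0.0407) and Des (0.84 ± 0.21, adjusted p 0.0352) were higher and Acta2 (-0.99 ± 0.13, adjusted p 0.00319) was lower. The summed mural list ran from 895.1 to 1192.9 CPM without and from 426.5 to 795.3 with DS3201, with no overlap. Acta2 gave most of this sum, at means of 912.8 CPM without and 471.5 with DS3201. The list median was 0.23, so the sum does not describe the mural genes as a set.

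The Ring1a knockdown changed none of the 10 genes past the threshold, without or with DS3201. The shRNA target Ring1 was not called either, at -2.32 ± 0.73 on the log2 scale without the inhibitor. A missing call therefore does not show that a member was unchanged. Without the inhibitor 0% of all entries were called, with and without the block, and the same held with the inhibitor and for the interaction. At an unadjusted p under 0.05, edgeR gave 1 member without the inhibitor, 0 with it and 0 for the interaction. With the block these counts were 1, 2 and 0. Of all 15287 entries, 155 passed this unadjusted level without the inhibitor, 272 with it and 23 for the interaction, without the block. The entries passing it with the block were not counted, so the member counts with the block have no share to be read against. DESeq2 called 0 members in the 3 comparisons. The member without the inhibitor was Flt4, with 26 counts in knockdown against 5 in control cells, 4.74 times the control level (95% counting limits 1.79 and 15.8). Its log2 difference was 2.21 ± 0.85 (edgeR adjusted p 1), at 1.26 and 2.48 within the sets. With the inhibitor Flt4 was higher in the knockdown within both sets (0.57 and 1.19), a difference of 0.90 ± 0.53 that did not pass (adjusted p 1). The interaction for Flt4 was -1.31 ± 1.00 (adjusted p 1), so a difference between the DS3201 effects under the 2 shRNAs was not detected with 2 libraries per group. Beside the inhibitor the knockdown differences were 0.46 ± 0.25 for Vegfa, 0.48 ± 0.33 for Vegfc and -1.17 ± 0.59 for Pgf, and none passed.

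With the block, the single comparisons with DS3201 called 2 members each, Flt4 with Tek under control shRNA and Flt4 with Tie1 in the other 2, where 6.62% of entries were higher with control shRNA, 6.05% with the knockdown and 9.21% in combined against control cells. In the average effect the block called 4, namely Flt1, Flt4, Tek and Tie1. Of these, Flt4, Tek and Tie1 were under 1 CPM without DS3201, where the block called 54.4% of entries higher. That share was not computed for the single comparisons. Each replicate number has a batch of its own in the labels, which name no separate cultures, so every p-value here rests on the variation among libraries, and that variation may be technical.

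The genes most like each receptor gene over the 8 libraries were ranked by Pearson r of log2 CPM among 13185 genes, as a description over libraries that share treatment and set. For Flt4 these were Vnn1 (0.997) and Nipal4 (0.996), for Tie1 Mdfi (0.998) and Slc6a13 (0.997), and for Tek Slc14a2 (0.99) and Calcrl (0.987). For Flt1 they were Fam167a and Atp2b4 (both 0.987), and for Kdr Gng3 (0.956) and Tnc (0.942). Vegfc was closest to Sh3pxd2a (0.991) and Ankrd16 (0.99), Vegfb to Adpgk (0.977) and Prpf19 (0.975), and Vegfa to Rab11fip4os1 (0.95) and Peo1 (0.932). Pgf was closest to Palb2 (0.947) and Ftx (0.939), and Pecam1 to Pcp4l1 (0.92) and Ch25h (0.917).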

How the data were processed

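Poly(A) RNA was read in 8 libraries, 2 per group, grouped by the labels. Per the submitters' processing notes, the authors used Trim Galore, TopHat2 and the mm10 build. The deposited values are raw counts per gene symbol or repeat subfamily. How reads were counted, with which strand setting and annotation, is not stated in the notes or labels. The table has 8 more columns that belong to no labelled sample, and they were left out.

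Counts were filtered with filterByExpr by group (minimum count 10, minimum total 15), which left 15287 of 25215 entries. They were scaled by TMM and tested with edgeR 4.0.16 in R 4.3.3, as two-sided quasi-likelihood F tests with 1 term per group over all 8 libraries. Adjusted p-values are Benjamini-Hochberg values over all entries tested, at a threshold of 0.05. Standard errors come from the fitted model. Counting intervals are exact binomial at 95% and, like the floor of 3 counts, cover counting error only. Log2 CPM used a prior count of 2. The script was tested on simulated data.

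The labels give each replicate number a batch of its own but do not say which column prefix it is. The differences of set 20 from set 28 were compared between groups across all entries tested (r 0.559 to 0.897), and the prefix served as the replicate block in an alternative fit. Other alternatives were DESeq2 1.42.0, other normalizations and filters, only the libraries compared, and each library left out. Gene positions are from GENCODE vM21 and promoter windows from RefSeq.

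The 10 genes and the lists were chosen with earlier results of these data known. All 10 genes are named. From each list up to 4 genes per direction are named that passed in any comparison without or with the block, together with fixed markers and the 2 genes most like each member. Lmo2, Hhex, S100a4, Postn, Vcam1, Cd34 and Runx1 fall outside this rule and were named after their values were seen. Angpt1, Angpt2, Nrp1, Nrp2, Cldn5, Erg, Robo4, Sox17 and Etv2 also fall outside it.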

Additional observations from a re-analysis of the deposited data

Results flagged for a closer look

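Pgf had a DS3201 difference of opposite sign under the 2 shRNAs in both sets. With control shRNA the log2 difference was 0.05 in set 20 and 0.34 in set 28, and with the Ring1a shRNA it was -0.91 and -0.86, so the averages differed by -1.08. The same libraries gave knockdown differences of 0.08 and 0.13 without the inhibitor and -0.88 and -1.06 with it, which again differ by -1.08. The interaction did not pass (edgeR adjusted p 1, and 0.99 with the block), and Pgf had 5 to 20 counts per library.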

How the results depend on the processing

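With the replicate block, the count of members called was 2 in place of 1 for DS3201 with control shRNA, for DS3201 with the knockdown and for combined against control. With the block and without inhibitor set 28 it was 2, 2 and 3. DESeq2 called 2 members for DS3201 with control shRNA. Fits of only the libraries compared called 0 in each of the 3 comparisons. Leaving out 1 library at a time gave 0 to 1 members in each of these and 1 in place of 3 in the average effect. Over all entries, higher and lower calls moved from 801 and 33 to 1974 and 636 with the block in the average effect, from 111 and 0 to 1012 and 108 for DS3201 with control shRNA, from 92 and 0 to 925 and 126 with the knockdown, and from 218 and 5 to 1408 and 315 for combined against control. In the same order DESeq2 gave 1343 and 263, 731 and 67, 620 and 38, and 918 and 126, and only the libraries compared gave 0, 2 and 1 higher calls in the last 3. Without a low-count filter, DS3201 with control shRNA gave 190 and 1 and DS3201 with the knockdown 210 and 1. The block without inhibitor set 28 gave 2253 and 1867, 662 and 259, 1251 and 844, and 2085 and 1719. The causes were not tested. Alternatives for the list genes were added after the data were seen. Members called stayed at 0 for the knockdown, the knockdown with inhibitor and the interaction under every alternative run. No result changed direction while called. Depth limits Tie1, Tek, Pgf and Pecam1, at 0 to 92 counts per library.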
